A study of Arabidopsis thaliana with 8 samples.

Results

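The genes described here are the 3 SnRK2 kinases most closely tied to abscisic acid (ABA) and the ABF and ABI transcription factors that act with them: *SnRK2.2* (AT3G50500), *SnRK2.3* (AT5G66880), *SnRK2.6* (AT4G33950), *ABF1* (AT1G49720), *ABF2* (AT1G45249), *ABF3* (AT4G34000), *ABF4* (AT3G19290), *ABI3* (AT3G24650), *ABI4* (AT2G40220) and *ABI5* (AT2G36270). They are 10 of the 25383 loci that a transcript accession on the array matched, and were chosen with earlier results of these data known. Every non-control probe to a RefSeq mRNA of these loci was taken, without regard to its values. That gave 16 of 43603 probes, of which 15 were bright enough to test. RNA came from whole *Arabidopsis thaliana* seedlings of 12 days, kept at 4 °C for 1 day before harvest, and was read on one-colour Agilent arrays. The 4 genotypes had 2 arrays each: *ros1-1 hda6-10*, *ros1-1 hda6-9*, the *ros1-1* single mutant from which both were isolated as suppressors, and C24 wild type carrying the RD29A::LUC reporter. All 4 share the C24 background, the reporter T-DNA and the cold treatment, so no array shows these genes without cold. *hda6-10* is a small deletion within exon 1 of the histone deacetylase gene *HDA6* that truncates the protein, and *hda6-9* is a T-DNA inserted just before the stop codon. Each allele is 1 line in the *ros1-1* background, and no *hda6* mutant with a functional *ROS1* was on the arrays. The series' text calls the replicates biological, and their number limits the precision of every value.

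ABA is perceived by PYR/PYL receptors, which, once bound, hold back the clade A PP2C phosphatases. The SnRK2 kinases that these phosphatases keep inactive are then free to phosphorylate group A bZIP factors, among them the ABF proteins and ABI5, which bind ABA-responsive elements in promoters such as those of *RD29A* and *RD29B*. *ABI3*, *ABI4* and *ABI5* encode a B3, an AP2 and a bZIP factor known from mutants insensitive to ABA at germination, and their transcripts are best known from seeds and young seedlings.

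A level below is the log2 of a probe's processed signal minus the 75th percentile of its array, so 0 is the brightness of that percentile, and levels of different probes are not comparable. A difference is the first-named genotype minus the second, from limma fitted to all 8 arrays, with a standard error (SE) and a p-value adjusted over 35381 probes. A probe was called higher or lower at an adjusted p under 0.05 with a change above 2-fold.

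On each array 77.2% to 80.6% of spots were well above background and 0 were saturated, and replicate arrays correlated at 0.99 over the 35381 tested probes. The brighter *HDA6* probe read -1.76 and -1.78 in *hda6-10*, 0.90 and 0.84 in *hda6-9*, -0.17 and -0.20 in *ros1-1*, and -0.31 and -0.24 in C24. It set each double mutant apart from the other genotypes, but where it lies relative to the lesions was not used here, so it is no check of them. The dimmer *HDA6* probe had *ros1-1* and C24 in the opposite order. Slide 1 held both *hda6-10* arrays and *ros1-1* replicate 1, slide 2 held *hda6-9* replicate 1 and *ros1-1* replicate 2, slide 3 held *hda6-9* replicate 2, and slide 4 held both C24 arrays. In each comparison with C24, slide and genotype therefore cannot be told apart.

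In *ros1-1 hda6-10* against *ros1-1*, 3 of the 15 probes were called higher and none lower, beside 6.36% of all 35381 probes called in either direction. All 3 read *ABF3*. Without the fold limit, 7 of the 15 passed, beside 12.0% of all probes, and these 7 read *ABF2*, *ABF3*, *ABF4* and *ABI5*. The median difference of the 15 probes was 0.58, beside 0.02 over all probes. Of the 15 probes, 10 read the 5 bZIP genes, *ABF3* with 3 of them. This median and those below therefore count some genes more than once, and no median per gene was taken. In *ros1-1 hda6-9* against *ros1-1*, 1 probe was called, that of *ABI5*, beside 5.67% of all probes, and the same single probe passed without the fold limit, beside 12.2%. Here the median difference was -0.05, beside 0.02 over all probes. Both comparisons share the *ros1-1* arrays.

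**Figure D1:**
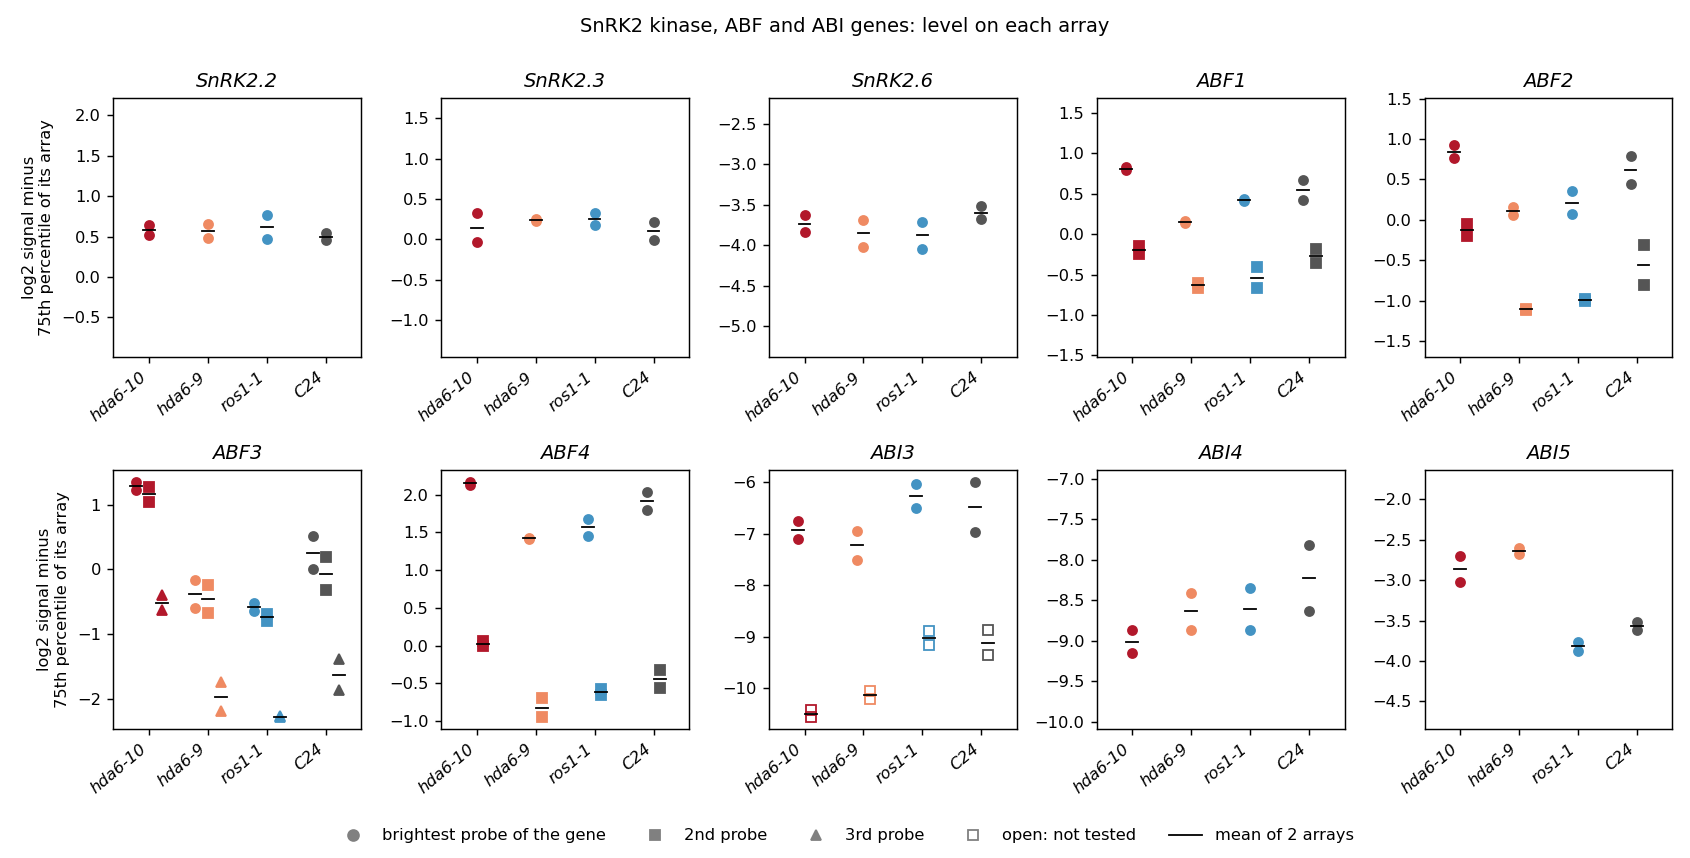
Level of every probe of the 10 genes on each array, as log2 processed signal minus the 75th percentile of its array, in ros1-1 hda6-10 (labelled hda6-10), ros1-1 hda6-9 (labelled hda6-9), ros1-1 and C24. Points are arrays (2 per genotype), bars are means and symbols tell the probes of a gene apart (open: not tested). The 3 ABF3 probes stand highest in hda6-10, ABI5 is higher in both hda6 genotypes than in ros1-1 and C24, and the 3 kinases keep 1 level across genotypes to within 0.28.

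None of the 3 kinases was called in any of the 6 comparisons. *SnRK2.2* and *SnRK2.3* encode close relatives known for ABA responses in germination and seedling growth. *SnRK2.2* read 0.52 and 0.64 in *hda6-10*, 0.49 and 0.65 in *hda6-9*, 0.77 and 0.48 in *ros1-1*, and 0.54 and 0.46 in C24. *SnRK2.3* read -0.03 and 0.33 in *hda6-10*, 0.23 and 0.26 in *hda6-9*, 0.32 and 0.17 in *ros1-1*, and 0.22 and -0.01 in C24. For both genes the arrays of *hda6-10*, *hda6-9* and *ros1-1* overlapped throughout, and no neighbours in the order of their genotype means differed beyond their spread. The genotype means spanned 0.12 for *SnRK2.2* and 0.14 for *SnRK2.3*. The difference of *hda6-10* from *ros1-1* was -0.04 for *SnRK2.2* (95% interval -0.35 to 0.27, adjusted p = 0.88) and -0.10 for *SnRK2.3* (-0.47 to 0.27, adjusted p = 0.73). For *hda6-9* the differences from *ros1-1* were -0.05 (-0.36 to 0.26) and 0.00 (-0.37 to 0.36, rounded from -0.003871). Intervals of this width leave out a 2-fold change in either direction.

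*SnRK2.6*, also known as *OST1*, is the kinase best known for closing stomata in guard cells. It read -3.84 and -3.63 in *hda6-10*, -3.69 and -4.02 in *hda6-9*, -4.05 and -3.71 in *ros1-1*, and -3.52 and -3.68 in C24. The genotypes overlapped except that both C24 arrays stood above both of *ros1-1* and of *hda6-9*. The widest of its 6 differences was -0.28 for *ros1-1* against C24 (95% interval -0.70 to 0.14, adjusted p = 0.60). Against *ros1-1* it differed by 0.15 in *hda6-10* (-0.27 to 0.57, adjusted p = 0.65) and by 0.03 in *hda6-9* (-0.39 to 0.45, adjusted p = 0.94). In seedling RNA, fewer guard cells and less of a transcript per guard cell cannot be told apart. Each of 4 guard cell markers was well above background on every array, and their summed level was 3.39 to 3.54 in *hda6-10*, 2.74 to 2.75 in *hda6-9*, 3.06 to 3.14 in *ros1-1* and 3.33 to 3.48 in C24. The sum was taken over linear signals, so the brightest marker, *GC1*, weighed most in it. One marker of the 4, *GC1*, was higher in *hda6-10* than in *hda6-9*, by 1.02 (SE 0.12, adjusted p = 0.024). The other markers were not called between the alleles: *FAMA* at 0.20, *MYB60* at 0.03 and *KAT1* at -0.11 (adjusted p = 0.29, 0.89 and 0.55). The part of guard cells in the *SnRK2.6* values was not tested.

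*ABF3* encodes a bZIP activator that, with *ABF2* and *ABF4*, drives much of the ABA-induced transcription in vegetative tissue. It was higher in *hda6-10* than in *ros1-1* on all of its 3 probes, by 3.38-fold to 3.73-fold, while in *hda6-9* no *ABF3* probe was called. Its brightest probe, A_84_P104316, read 1.35 and 1.22 in *hda6-10*, -0.59 and -0.16 in *hda6-9*, -0.64 and -0.51 in *ros1-1*, and 0.51 and 0.00 in C24 (rounded from 0.004513). Both *hda6-10* arrays were above all 6 others, and C24 lay between them and the overlapping arrays of *hda6-9* and *ros1-1*. Probe A_84_P860582 read 1.27 and 1.04 in *hda6-10*, -0.67 and -0.24 in *hda6-9*, -0.69 and -0.79 in *ros1-1*, and 0.19 and -0.32 in C24. Probe A_84_P819706, annotated to another transcript of the gene, read -0.39 and -0.63 in *hda6-10*, -2.19 and -1.74 in *hda6-9*, -2.27 and -2.27 in *ros1-1*, and -1.39 and -1.86 in C24. On all 3 probes the genotype means ran from *hda6-10* through C24 and *hda6-9* to *ros1-1*. The probes read 1 locus in the same RNA, so they are no independent evidence of one another.

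Against *ros1-1*, *ABF3* rose in *hda6-10* by 1.86 (SE 0.21, adjusted p = 0.0051), 1.90 (SE 0.22, adjusted p = 0.0052) and 1.76 (SE 0.21, adjusted p = 0.0062) on the log2 scale, in the probe order above. The differences were as large within slide 1, where both *hda6-10* arrays were set against *ros1-1* replicate 1: 1.93, 1.84 and 1.76. Once slide entered the fit as a fixed block, adjusted p was 0.036, 0.047 and 0.052, so that the dimmest of the 3 probes no longer passed. Leaving out each array in turn kept every one of the 3 calls, with adjusted p-values between 0.0056 and 0.042. In *hda6-9* the same probes differed from *ros1-1* by 0.20 (95% interval -0.33 to 0.73), 0.29 (-0.25 to 0.83) and 0.31 (-0.22 to 0.83), with adjusted p-values of 0.57, 0.42 and 0.38. Within slide 2 the corresponding differences of *hda6-9* replicate 1 from *ros1-1* replicate 2 were -0.08, 0.13 and 0.09.

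The alleles were also compared with each other. In *hda6-10* against *hda6-9*, the same 3 *ABF3* probes were called higher and no other, beside 1.97% of all probes. *ABF3* was 3.17-fold, 3.06-fold and 2.74-fold higher in *hda6-10*, with log2 differences of 1.66, 1.61 and 1.45 and adjusted p-values of 0.025, 0.028 and 0.031. Without the fold limit 7 probes passed, beside 3.82% of all probes, all of them higher in *hda6-10*: the 3 of *ABF3*, both of *ABF4*, and 1 each of *ABF1* and *ABF2*. The median difference of the 15 probes was 0.66, beside -0.02 over all probes. The *ABF3* calls between the alleles were lost on leaving out any 1 array of *hda6-10*, *hda6-9* or *ros1-1*, with log2 differences that stayed between 1.23 and 1.88 and adjusted p-values of up to 0.14. They were also lost with only the 4 arrays compared in the fit (adjusted p = 0.050, 0.056 and 0.070), which left the differences as they were. The alleles shared no slide, and the slide block, which joins them only through *ros1-1*, gave adjusted p-values of 0.23, 0.29 and 0.30 for *ABF3* and left no probe of the array called.

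**Figure D2:**
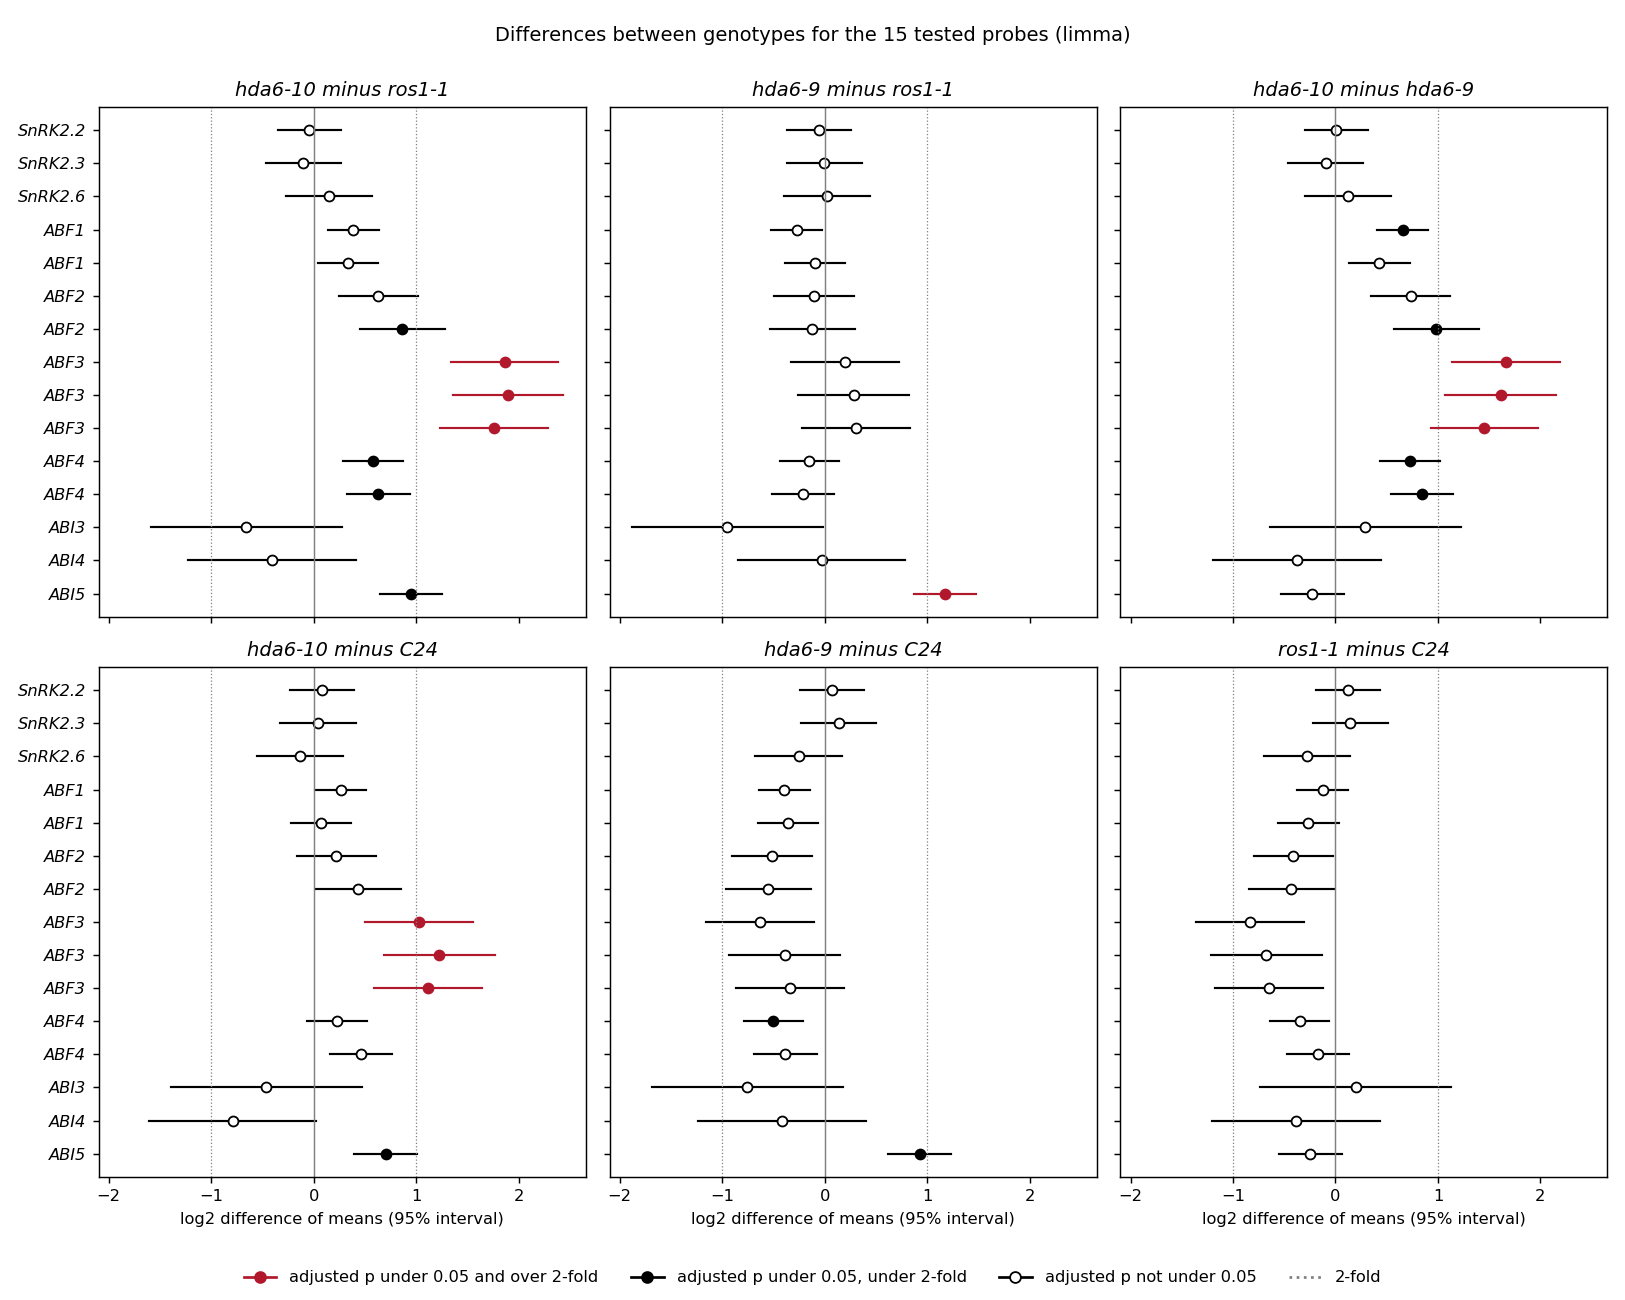
Log2 difference between genotype means for the 15 tested probes, with 95% intervals from limma, in the 6 comparisons (first-named genotype minus the second; probes of a gene in order of brightness, brightest on top). Red marks an adjusted p under 0.05 with a change above 2-fold, filled black an adjusted p under 0.05 below 2-fold, and dotted lines 2-fold. ABF3 is red wherever hda6-10 is set against another genotype, and ABI5 is red only for hda6-9 minus ros1-1, with 0.95 for hda6-10 minus ros1-1 just under 2-fold.

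*ABF1*, *ABF2* and *ABF4* showed smaller differences, with no probe past 2-fold in any comparison. All 6 of their probes had 1 order of genotype means, with *hda6-10* highest, then C24, *ros1-1* and *hda6-9*. The probes share the same RNA, so the order is a description. *ABF4*, also called *AREB2*, read 2.17 and 2.13 in *hda6-10*, 1.42 and 1.42 in *hda6-9*, 1.46 and 1.68 in *ros1-1*, and 2.04 and 1.80 in C24 on its brighter probe. Both *hda6-10* arrays stood above the other 6, and the *hda6-9* arrays lay below the rest. On its dimmer probe *ABF4* read 0.06 and -0.01 in *hda6-10*, -0.94 and -0.70 in *hda6-9*, -0.65 and -0.57 in *ros1-1*, and -0.32 and -0.56 in C24. Against *ros1-1* the *hda6-10* difference was 0.58 (SE 0.12, 1.49-fold, adjusted p = 0.031) and 0.63 (SE 0.12, 1.55-fold, adjusted p = 0.028). Between the alleles it was 0.73 (1.66-fold, adjusted p = 0.036) and 0.84 (1.80-fold, adjusted p = 0.031). Against *ros1-1* the brighter probe stayed at an adjusted p under 0.05 in 10 of 19 other settings and the dimmer one in 13, and both were lost with the slide block (adjusted p = 0.14 and 0.15) and without either array of *hda6-10* or *ros1-1* (the brighter one also without either array of *hda6-9*). Between the alleles the probes stayed there in 7 and 9 of 19, and were lost with only the arrays compared (adjusted p = 0.065 and 0.082), with the slide block (0.39 and 0.37), and without any 1 array of *hda6-10*, *hda6-9* or *ros1-1* (the brighter one also without either array of C24).

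*ABF2*, also called *AREB1*, read 0.76 and 0.92 in *hda6-10*, 0.16 and 0.06 in *hda6-9*, 0.07 and 0.35 in *ros1-1*, and 0.79 and 0.45 in C24 on its brighter probe. On the dimmer one it read -0.20 and -0.05 in *hda6-10*, -1.11 and -1.11 in *hda6-9* (rounded from -1.11 and -1.105), -1.004 and -0.97 in *ros1-1*, and -0.31 and -0.81 in C24. On both probes *hda6-10* was above *hda6-9* and *ros1-1* on every array, and only on the brighter one did it overlap with C24. The test passed on the dimmer probe alone, at 0.86 against *ros1-1* (SE 0.17, 1.82-fold, adjusted p = 0.027) and 0.98 against *hda6-9* (SE 0.17, 1.98-fold, adjusted p = 0.041). Under other settings the dimmer probe stayed under 0.05 in 11 of 19 against *ros1-1* and 9 of 19 against *hda6-9*, and in both cases it did not with the slide block (adjusted p = 0.12 and 0.40) or without any 1 array of *hda6-10*, *hda6-9* or *ros1-1*. The brighter probe differed by 0.63 (SE 0.16, adjusted p = 0.057) and 0.73 (SE 0.16, adjusted p = 0.065).

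*ABF1* read 0.79 and 0.83 in *hda6-10*, 0.14 and 0.17 in *hda6-9*, 0.41 and 0.43 in *ros1-1*, and 0.67 and 0.42 in C24 on its brighter probe, on which replicate arrays of 3 genotypes lay close together. It differed between the alleles by 0.66 (SE 0.10, 1.58-fold, adjusted p = 0.034), and from *ros1-1* by 0.39 in *hda6-10* (adjusted p = 0.064) and by -0.27 in *hda6-9* (adjusted p = 0.14). The difference between the alleles stayed under 0.05 in 9 of 19 other settings, and did not with only the arrays compared (adjusted p = 0.076), with the slide block (0.48) or without any 1 array of *hda6-10*, *hda6-9* or *ros1-1*. The dimmer probe read -0.25 and -0.15 in *hda6-10*, -0.66 and -0.60 in *hda6-9*, -0.40 and -0.67 in *ros1-1*, and -0.19 and -0.36 in C24. Its differences were smaller, 0.43 between the alleles (adjusted p = 0.11) and 0.34 for *hda6-10* against *ros1-1* (adjusted p = 0.14). In *hda6-9* against *ros1-1*, none of the 6 probes of *ABF1*, *ABF2* and *ABF4* passed, with differences from -0.27 to -0.09.

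*ABI5* encodes the bZIP factor that holds germinating seedlings back when ABA is present. It was the 1 member whose difference from *ros1-1* had an adjusted p under 0.05 in both double mutants. *ABI5* read -2.71 and -3.02 in *hda6-10*, -2.68 and -2.60 in *hda6-9*, -3.76 and -3.87 in *ros1-1*, and -3.52 and -3.62 in C24. All 4 arrays of the double mutants were above all 4 of *ros1-1* and C24, and *hda6-9* was above *hda6-10*. *ABI5* rose in *hda6-9* by 1.18 against *ros1-1* (SE 0.12, 2.26-fold, adjusted p = 0.0038). In *hda6-10* it differed from *ros1-1* by 0.95 (SE 0.12, 1.93-fold, adjusted p = 0.0079), under the 2-fold limit. Between the alleles the difference was -0.22 (95% interval -0.53 to 0.08, adjusted p = 0.32). The alleles were therefore not shown to differ at *ABI5*.

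The *ABI5* values lay close to the 2-fold limit, and some settings moved them across it or out of the test. With normexp background correction the *hda6-9* difference was 0.94 (adjusted p = 0.015), and with slide as a fixed block it was 1.19 with an adjusted p of 0.19, the same value as within slide 2. Leaving out *hda6-10* replicate 2 brought the *hda6-10* difference to 1.11 (adjusted p = 0.0094), and leaving out *ros1-1* replicate 1 brought it to 1.01 (adjusted p = 0.041). Within slide 1 the *hda6-10* difference was 0.90, and the slide block gave it an adjusted p of 0.17.

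*ABI3* and *ABI4* were dim in these seedlings. The brighter *ABI3* probe, well above background on all 8 arrays, read -6.76 and -7.11 in *hda6-10*, -6.94 and -7.52 in *hda6-9*, -6.51 and -6.04 in *ros1-1* (rounded from -6.045), and -6.96 and -5.99 in C24. The double mutants lay below *ros1-1* on every array but overlapped with C24. Its difference from *ros1-1* was -0.66 in *hda6-10* (95% interval -1.59 to 0.27, adjusted p = 0.34) and -0.95 in *hda6-9* (-1.88 to -0.02, adjusted p = 0.15). The *hda6-10* difference changed direction with normexp background correction, to 0.21, and was -1.06 with quantile normalization. That of *hda6-9* kept its sign in all 19 other settings. The dimmer *ABI3* probe was well above background on no array and was not tested.

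*ABI4* was well above background on 3 arrays only, *ros1-1* replicate 2 and both of C24. It read -9.16 and -8.87 in *hda6-10*, -8.87 and -8.41 in *hda6-9*, -8.87 and -8.35 in *ros1-1*, and -8.63 and -7.82 in C24. Set against the dimmest signal that counted as well above background, the C24 mean was 1.09-fold above *hda6-10* and 1.19-fold above *hda6-9*. Adjusted p-values from limma for the differences were 0.20 and 0.43, so neither fold is a minimum. Under normexp background correction *hda6-10* lay above C24 instead, by 0.55. *ABI4* entered the test only through its C24 arrays, a filter that favours C24 as the brighter genotype, so these folds are a description.

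Because the ABI factors are best known from seeds, 6 seed and embryo markers were read on the same arrays, of which 4 were well above background on all 8 and none was called in any comparison. Their summed level was -0.47 to 0.73 in *hda6-10*, -3.50 to -0.06 in *hda6-9*, -0.39 to 0.93 in *ros1-1* and -4.99 to -0.24 in C24, wide apart between the replicates of *hda6-9* and of C24. The part of seed transcripts in the *ABI3*, *ABI4* and *ABI5* values was not tested.

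Against C24, the double mutants differed from each other in which members passed. In *ros1-1 hda6-10* the 3 *ABF3* probes were called higher and no other, beside 4.73% of all probes, and *ABF3* was 2.04-fold, 2.34-fold and 2.16-fold higher than in C24, with log2 differences of 1.03, 1.22 (rounded from 1.225) and 1.11 and adjusted p-values of 0.042, 0.028 and 0.034. Without the fold limit *ABI5* passed as well, at 0.70 (SE 0.12, 1.63-fold, adjusted p = 0.027), which made 4 probes beside 8.95% of all probes. Of the 8 arrays left out in turn, 1 (*hda6-10* replicate 2) left *ABI5* at an adjusted p under 0.05. The *ABF3* calls against C24 were lost with only the 4 arrays compared, and on leaving out either array of *hda6-10*, either of *ros1-1*, or C24 replicate 2. The brightest probe was also lost with no filter on dim probes (adjusted p = 0.060), and with the median in place of the 75th percentile it was under 2-fold (0.97). Without C24 replicate 2 the log2 differences were 0.78, 0.97 and 0.88, and the lowest and highest adjusted p over all such fits were 0.035 and 0.17.

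In *ros1-1 hda6-9* against C24 no member was called by limma, beside 6.05% of all probes, and none was past 2-fold at an unadjusted p under 0.05. Without the fold limit 2 probes passed, beside 13.3% of all probes. *ABI5* was higher in *hda6-9*, by 0.93 (SE 0.12, 1.90-fold, adjusted p = 0.0092), and the brighter *ABF4* probe was lower, at a difference of -0.50 (SE 0.12, adjusted p = 0.046). The *ABI5* difference was lost without *hda6-9* replicate 2 (adjusted p = 0.057), and that of *ABF4* without any 1 of the 8 arrays. The median difference of the 15 probes from C24 was 0.23 in *hda6-10* and -0.39 in *hda6-9*, beside 0.02 and 0.01 over all probes.

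In *ros1-1* against C24 no member was called, beside 0.430% of all probes, and none passed without the fold limit, beside 0.469%. At an unadjusted p under 0.05 no member probe was past 2-fold either. *ABF3* had the widest differences, -0.83 (95% interval -1.36 to -0.31, adjusted p = 0.23), -0.67 (-1.21 to -0.13, adjusted p = 0.33) and -0.65 (-1.17 to -0.12, adjusted p = 0.33). Of the 15 differences 3 were above 0, and their median was -0.28, beside -0.01 over all probes. For *ABI5* the difference was -0.25 (-0.55 to 0.06, adjusted p = 0.53).

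**Figure D3:**
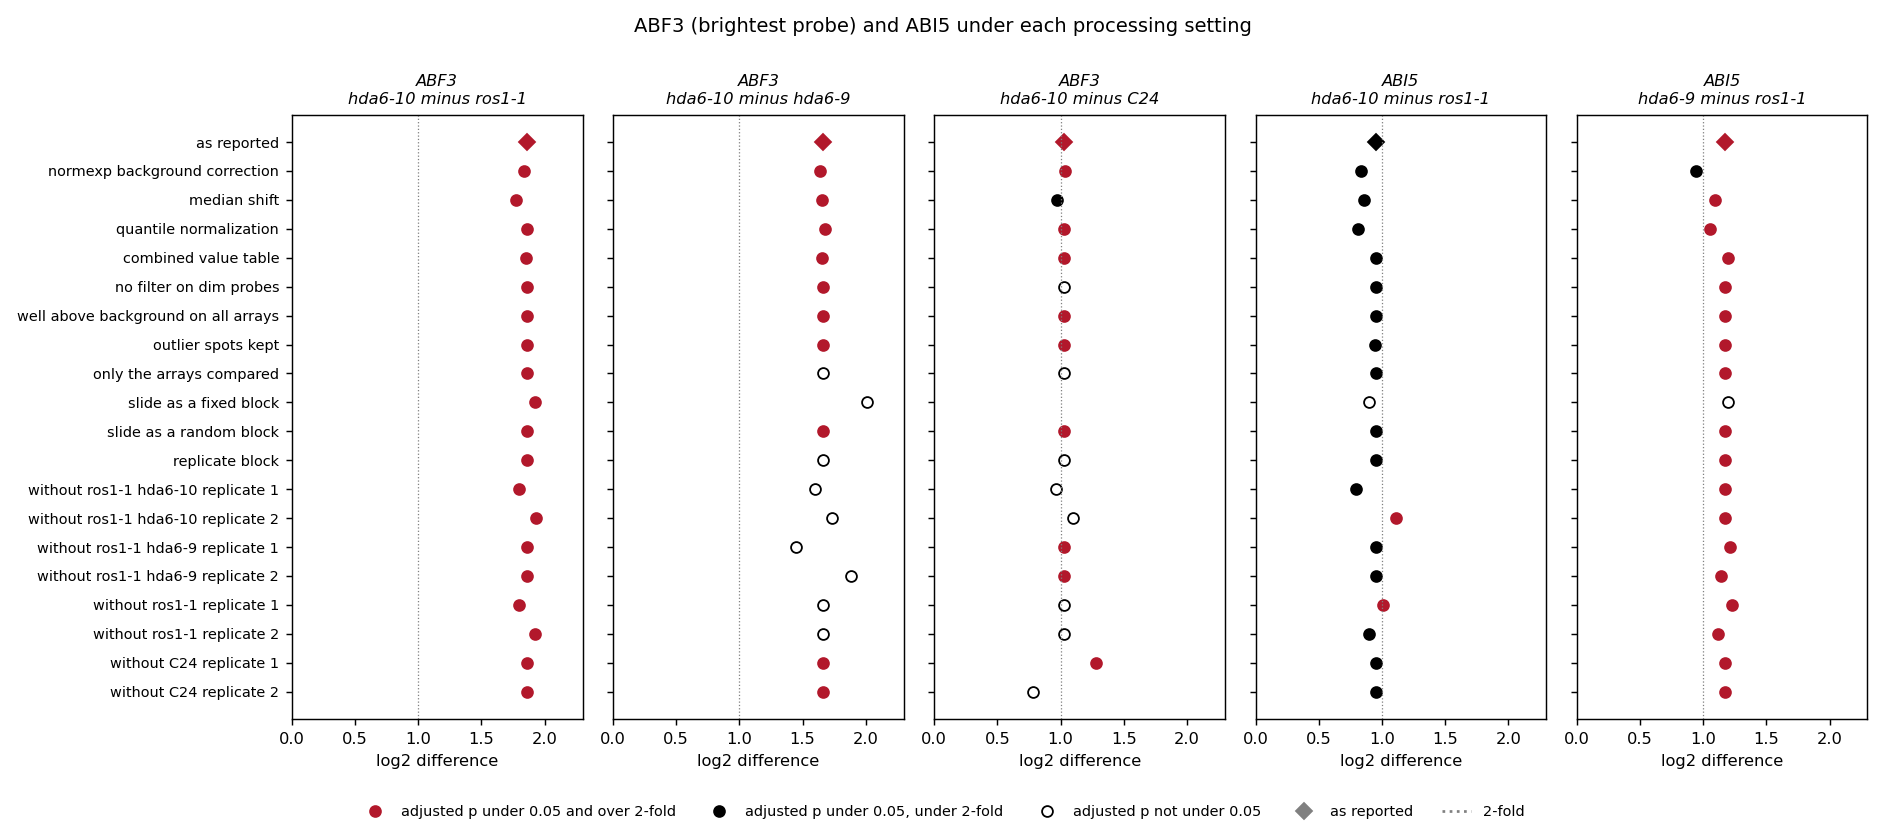
Log2 difference of the brightest ABF3 probe (3 panels on the left) and of ABI5 (2 on the right) as reported and under each other setting of the processing. Red points passed at an adjusted p under 0.05 and over 2-fold, filled black points passed below 2-fold, open points did not pass, and slide as a fixed block gives no value for C24. ABF3 passed against ros1-1 under every setting shown, at 1.77 to 1.93, while its differences from hda6-9 and C24 kept their direction and were open under 9 and 8 settings.

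The same arrays gave the other genes of the pathway, in lists chosen with earlier results of these data known and read with the brightest probe of each gene. Of 7 other SnRK2 kinases none was called against *ros1-1* in either allele or between the alleles. *SnRK2.7* came nearest in *hda6-10*, at 1.07 (adjusted p = 0.053), with 1.21 between the alleles (adjusted p = 0.065). *SnRK2.5* differed by 0.999 in *hda6-10* (adjusted p = 0.088) and 1.098 in *hda6-9* (adjusted p = 0.065), and it was the 1 gene of that list called against C24, at 1.21 in *hda6-9* (adjusted p = 0.049). Of 7 other group A bZIP genes 4 were tested and none was called in any comparison, with medians of 0.05 in *hda6-10* and 0.05 in *hda6-9* against *ros1-1*. Among 3 B3 relatives of *ABI3*, the seed regulator *FUS3* was higher in *hda6-9* than in *ros1-1*, by 2.08 (SE 0.35, adjusted p = 0.019).

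Upstream of the kinases, 7 of 8 tested clade A PP2C genes were called higher in *hda6-10* than in *ros1-1*, beside 6.36% of all probes called in either direction. The median of the 8 was 2.02, with the largest values measured on all arrays at *HAI2* (4.93, adjusted p = 0.012) and *HAI1* (4.47, adjusted p = 0.022). In *hda6-9* none of the 8 was called against *ros1-1*, with a median of -0.48. Against C24, none of the 8 was called in *hda6-10*, with a median of 0.68, beside 4.73% of all probes called. In *hda6-9*, 5 were lower than in C24, beside 6.05% of all probes called, with *HAI1* at -4.10 (adjusted p = 0.029). Of 11 tested PYR/PYL receptor genes 3 were lower in *hda6-10* than in *ros1-1*, *PYL6* at -2.04, *PYL5* at -1.97 and *PYL4* at -1.31 (adjusted p = 0.014, 0.011 and 0.017), and none was called in *hda6-9* against *ros1-1*. Against C24, no receptor gene was called in *hda6-10*. *PYL3* was called higher in *hda6-9* than in C24 (adjusted p = 0.047), at -2.95 and -4.23 in *hda6-9* and -9.91 and -8.38 in C24. It was well above background on 5 of the 8 arrays and differed widely between replicates, so no fold is given. By these levels *PYL3* entered the test through *hda6-9*, a filter that favours *hda6-9* as the brighter genotype, so the call is a description. Between the alleles 6 PP2C genes were called higher in *hda6-10* and 3 receptor genes lower, beside 1.97% of all probes. With slide as a fixed block no probe of the array was called between the alleles.

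Downstream, 6 of 14 ABA-responsive targets were called higher in *hda6-10* than in *ros1-1*, beside 6.36% of all probes, and none in *hda6-9*. Against C24, 2 of the 14 were called higher in *hda6-10*, beside 4.73% of all probes, and 3 lower in *hda6-9*, beside 6.05%. The median of the 14 in *hda6-10* against *ros1-1* was 1.03, and the calls against *ros1-1* were led by *RD29A* (5.74, adjusted p = 0.0098), *RD29B* (3.603, adjusted p = 0.0032) and *RD20* (3.14, adjusted p = 0.0072). Of 8 genes for proteins that bind ABI5 or mark it for degradation, 3 were called higher in *hda6-10* than in *ros1-1*: the ABI5 binding proteins *AFP3* (3.14, adjusted p = 0.010), *AFP1* (2.32, adjusted p = 0.0016) and *AFP2* (1.74, adjusted p = 0.0035). In *hda6-9*, where *ABI5* was called, these 3 differed from *ros1-1* by -0.68, 0.28 and 0.21 (adjusted p = 0.35, 0.37 and 0.46). Of the 8 genes, 1 was called higher in *hda6-10* than in C24, beside 4.73% of all probes, and 2 lower in *hda6-9*, beside 6.05%. Markers of leaf mesophyll (2 genes) and root hairs (3 genes) had no call in any comparison, and the summed root hair level was -2.17 to -2.16 in *hda6-10*, -5.26 to -3.22 in *hda6-9*, -1.89 to -1.75 in *ros1-1* and -3.89 to -1.92 in C24. Its part in the member values was not tested.

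**Figure D4:**
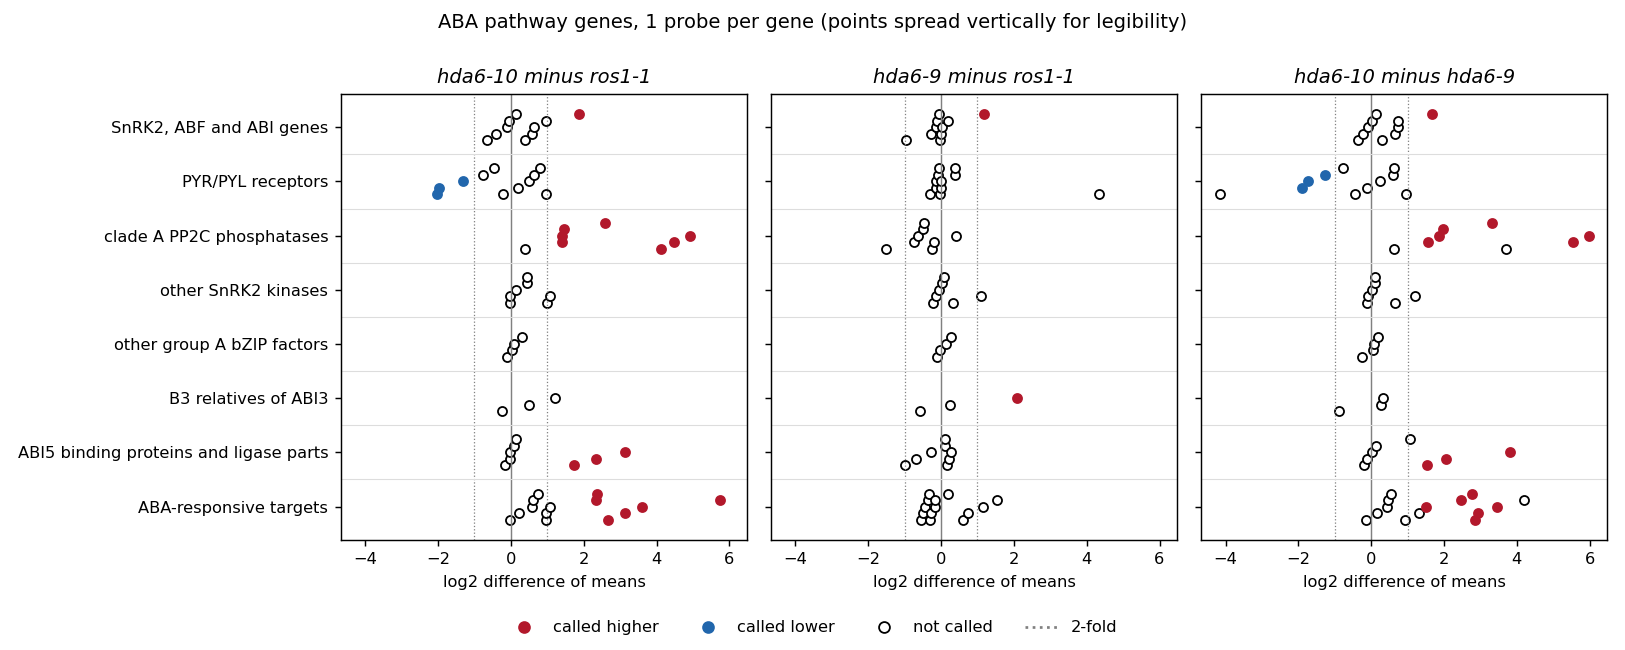
Log2 difference of each tested gene (1 point per gene, brightest probe) in the SnRK2, ABF and ABI genes and 7 other lists of the ABA pathway, for hda6-10 minus ros1-1, hda6-9 minus ros1-1 and hda6-10 minus hda6-9. Red points were called higher and blue lower, open points were not called, and dotted lines mark 2-fold. Against ros1-1, calls in hda6-10 stand at ABF3, 7 phosphatase genes, 3 ABI5 binding proteins and 6 targets (higher) and 3 receptors (lower), whereas hda6-9 has ABI5 and FUS3. Neither ABI5 nor FUS3 was called between the alleles.

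Over the 8 arrays, 5 annotated genes followed *ABF3* (probe A_84_P860582, the member probe with the widest range of genotype means) most closely among 3057 candidate probes: *AT1G69480* with a Pearson r of 0.996, *AT5G59480* with 0.9945, *G3Pp4*, named as a glycerol-3-phosphate permease, with 0.994, *AT3G56260* with 0.991 and *AT1G19490* with 0.990. *AT1G69480* read -0.03 and -0.60 in *hda6-10*, -3.63 and -3.06 in *hda6-9*, -3.42 and -3.88 in *ros1-1*, and -1.96 and -3.05 in C24, with *hda6-10* above the other genotypes on every array. The points share their arrays and fall into 4 genotypes, so the likeness is a description.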

How the data were processed

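Expression was measured in 8 arrays, 2 for each of 4 genotypes taken from the sample labels. The authors scanned the arrays and deposited one-colour intensity values on a linear scale from Feature Extraction 10.7.1.1, after background subtraction and spatial detrending, and without the scaling between arrays that the methods name. Of the deposited intensity columns, the processed signal was used, and the combined table, which holds the background-subtracted intensity, served as an alternative. The methods give another number of replicates than the labels, and the labels were followed. No column of per-sample values was left unmapped (0).

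With R 4.3.3 and limma 3.58.1, outlier spots (25 to 49 per array) were set aside, signals were put on the log2 scale, the 75th percentile of each array over non-control probes was subtracted and spots of a probe were averaged. Testing was limited to probes that both arrays of any genotype read well above background (35381 of 43603). A mean per genotype was fitted with lmFit and eBayes (prior degrees of freedom 1.8), and p-values were adjusted by Benjamini-Hochberg. The threshold for a call was 0.05, together with more than 2-fold. The fit was tested on simulated data. Probes were named by RefSeq accession (34285 matched) from a TAIR10.1 gene table. The build of the probe design is a different one, so no positions are given, and no sequences were used here.

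All member probes are named. From each pathway list, counts and at most 3 called genes per comparison are given. The 5 genes most like *ABF3* were taken by Pearson r over the 8 arrays, among probes well above background on all arrays whose genotype means spanned at least 1. Members and lists were chosen with earlier results of these data known. Alternatives were another background correction, scaling, starting table, filter, treatment of outliers, set of arrays, slide or replicate block, threshold, genes in place of probes, and each array left out in turn.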

Additional observations from a re-analysis of the deposited data

Results flagged for a closer look

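The effect of an *hda6* allele on *ros1-1* differed between the alleles at 7 member probes, by the test of that difference itself (adjusted p under 0.05 from limma, with slide left out of the model). With slide as a fixed block none of the 7 was under 0.05 (0.23 to 0.48), and the alleles shared no slide, so that allele and slide could be separated only through *ros1-1*. None of the 7 stayed under 0.05 on leaving out any 1 array of *hda6-10*, *hda6-9* or *ros1-1*. The log2 values of *hda6-10* minus *hda6-9* were 1.66, 1.61 and 1.45 for the 3 *ABF3* probes, 0.73 and 0.84 for the *ABF4* probes, 0.98 for the dimmer *ABF2* probe and 0.66 for the brighter *ABF1* probe. No explanation was tested. No group had enough arrays to look for a single array far from the others.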

How the results depend on the processing

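Of 1656 values of single member probes under alternatives, judged by the adjusted p and the 2-fold limit together, 1600 kept their side, 53 lost a call, 3 gained one and 0 reversed with a call. Of the lost calls, 27 were between the alleles and 23 in *hda6-10* against C24, all of *ABF3*, while the *ABF3* difference from *ros1-1* was lost in 1. By the adjusted p alone, 11 differences under 2-fold were below 0.05, and 86 of their 206 values under alternatives were not, against 52 of 187 for the 10 differences past 2-fold. Where a cause is not given, it was not tested.

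Member probes called for *hda6-10* against *ros1-1*, *hda6-9* against *ros1-1*, *hda6-10* against *hda6-9*, *hda6-10* against C24, *hda6-9* against C24 and *ros1-1* against C24 numbered 3, 1, 3, 3, 0 and 0. Without the fold limit the counts were 7, 1, 7, 4, 2 and 0. With genes in place of probes, 1 gene in each of the first 4 was called, because *ABF3* then counts once. With normexp correction the count for *hda6-9* against *ros1-1* was 0. With no filter on dim probes it was 2, and *hda6-9* against C24 had 1, since the *ABI3* probe below background was then tested. That probe, well above background on no array, differed by -1.11 from *ros1-1* and -1.01 from C24 in *hda6-9*. In *hda6-10* its differences were wider, -1.47 and -1.37, so the drop was not particular to *hda6-9*. With slide as a fixed block, *hda6-9* against *ros1-1* and *hda6-10* against *hda6-9* had 0. That fit had few arrays per slide and no value against C24. With only the arrays compared, *hda6-10* against *hda6-9* and against C24 had 0. Leaving out 1 array gave 3 to 4 for *hda6-10* against *ros1-1*, 1 for *hda6-9* against *ros1-1*, 0 to 3 for *hda6-10* against *hda6-9*, 0 to 3 for *hda6-10* against C24, and 0 for the others.

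With a replicate block the counts for *hda6-10* against *hda6-9* and against C24 were 0, and over all probes between the alleles 25 were called, beside 697 without it. Deviations of same-numbered arrays correlated between -0.375 and 0.0626, so same-numbered arrays did not deviate alike. Slide 2 held *hda6-9* replicate 1 with *ros1-1* replicate 2, so these correlations cannot decide whether the numbers pair the arrays. The block gave the 7 probes that differed between the alleles adjusted p-values of 0.066 to 0.087. Of the 3 gained calls, 2 were *ABI5* in *hda6-10* against *ros1-1*, each without 1 array, and 1 was the dimmer *ABF2* probe between the alleles under quantile normalization (1.002, adjusted p = 0.037).

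Over all probes the 6 comparisons had 2252, 2006, 697, 1675, 2142 and 152 calls, in the order above. Normexp gave 1313, 838, 478, 1177, 936 and 49, and a requirement for signal on all arrays gave 1543, 1318, 590, 1064, 1379 and 82. With only the arrays compared, *hda6-10* against *hda6-9* had 412 and *ros1-1* against C24 had 63. The slide block gave 1211 and 588 for the alleles against *ros1-1* and 0 between them. The replicate block gave 82 for *ros1-1* against C24. Leaving out 1 array moved the calls between the alleles to between 4 and 546 and those of *ros1-1* against C24 to between 56 and 148, with 1465 to 2158 for *hda6-10* and 1398 to 1942 for *hda6-9* against *ros1-1*, and 1075 to 1510 for *hda6-10* and 1291 to 2030 for *hda6-9* against C24. Median shifts of scaling alternatives over all probes stayed within 0.11, the widest being 0.1085 for *hda6-10* against C24 under normexp. Precision rests on 2 arrays per genotype, and for *ABI3* and *ABI4* on signals near background.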
